A study of Mus musculus with 8 samples.

Results

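The genes that write, erase and read methylation of DNA were measured in nuclei of forebrain excitatory neurons taken after pilocarpine-induced seizure and after mock treatment. Members were taken by symbol and number 9: the erasers Tet1, Tet2 and Tet3, the writers Dnmt1, Dnmt3a and Dnmt3b, and the readers Mbd1, Mbd2 and Mbd3. All 9 were found among the 55471 genes of the exonic count table and among the 18513 genes of a second table that holds exonic and intronic counts apart, and all 9 passed the filter on low counts in both. The Pilo group holds 4 samples from mice given scopolamine methyl nitrate at 1 mg/kg and, 30 min later, pilocarpine at 340 mg/kg. Pilocarpine is an agonist of muscarinic acetylcholine receptors, seizures were left to develop for 100 min, and mice whose behaviour reached 3 to 5 on the Racine scale were kept. The Mock group holds 4 samples given scopolamine and, in place of pilocarpine, saline. All mice were male C57BL/6J animals of 6 to 8 weeks that carried CaMKIIalpha-Cre:SUN1-sfGFP. In them a Cre recombinase under the CaMKIIalpha promoter switches on a green fluorescent tag of the nuclear envelope, so that tagged nuclei can be pulled down with anti-GFP antibody. The RNA was polyadenylated RNA of those nuclei. Nothing in the labels ties each sample to a mouse of its own, so the p-values rest on a spread between samples that may be partly technical, and effects of the drug and of seizure cannot be told apart.

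DNA methylation is placed on cytosine, mostly in CG pairs and in neurons also outside them. Dnmt3a and Dnmt3b set it anew and Dnmt1 copies it after replication. Tet enzymes oxidise methylcytosine, which opens a way to its removal by base excision repair. Proteins with a methyl-CpG binding domain bind methylated sites or sit in complexes that do, and mature neurons express enzymes of each kind although they no longer divide.

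The exonic table held 29356788 to 36161448 counts per library and the intronic columns 11928054 to 16703475. Levels are CPM, each gene's count scaled to library size with TMM factors, taken separately for exonic and intronic counts. Fos, an immediate early gene, stood at 112 to 186 exonic CPM in Pilo and 8.29 to 29.2 in Mock. The 8 excitatory neuron markers summed to 2607 to 3161 CPM in Pilo and 2318 to 2952 CPM in Mock, of which 4 passed the test as higher and 1 as lower. The 7 inhibitory neuron markers summed to 159.8 to 254 CPM in Pilo and 125 to 162 CPM in Mock, with Gad1 and Gad2 higher, and the 6 oligodendrocyte markers to 376 to 674 CPM in Pilo and 293 to 399.6 CPM in Mock, with Mbp higher. The 6 astrocyte markers summed to 122 to 315 CPM in Pilo and 118 to 243 CPM in Mock and the 6 microglia markers to 12.1 to 18.3 CPM in Pilo and 9.85 to 15.5 CPM in Mock, and none of these, nor of 4 endothelial markers (5.16 to 37.5 CPM in Pilo and 3.27 to 12.9 CPM in Mock), passed the test. Of 4 oligodendrocyte precursor markers (27.1 to 63.0 CPM in Pilo and 23.5 to 43.9 CPM in Mock) Olig2 was higher. No marker of any list was at 0 in every library. The part of such nuclei in the results below was not tested, and in bulk samples fewer nuclei of a type and less RNA per nucleus cannot be told apart. Replicates 2 and 3 of each group swap numbers from the exonic to the second table, as identical gene counts show, so each number below is that of its own table.

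Promoter stretches are shown for the members whose exonic counts rose or stood closest to the threshold. RefSeq gave 11 promoters for 7 of the 9 members on GRCm38.p6, all but Mbd1 and Mbd2. Starts are those of the RefSeq promoters, and all 4 shown lie inside the span RefSeq gives the gene, whose outer ends are 83457208 for Tet3, 133545136 for Tet2, 3801559 for Dnmt3a and 153649411 for Dnmt3b. The 250 bases before each start hold no exon base of the same gene in GENCODE vM21 and are written 5′ to 3′ on the gene's own strand. Capitals mark matches, on either strand, to the motifs searched: the cAMP response element TGACGTCA, its core TGACG, the AP-1 site TGANTCA, the E-box CACGTG, the Egr site GCGNGGGCG and the CCAAT box CCAAT. The core lies within the full element, and overlapping matches run together.
Tet3: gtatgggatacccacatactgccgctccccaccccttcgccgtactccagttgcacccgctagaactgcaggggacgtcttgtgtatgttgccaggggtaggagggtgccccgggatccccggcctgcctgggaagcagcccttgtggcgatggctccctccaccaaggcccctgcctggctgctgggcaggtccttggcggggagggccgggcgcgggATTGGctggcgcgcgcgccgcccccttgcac
Tet2: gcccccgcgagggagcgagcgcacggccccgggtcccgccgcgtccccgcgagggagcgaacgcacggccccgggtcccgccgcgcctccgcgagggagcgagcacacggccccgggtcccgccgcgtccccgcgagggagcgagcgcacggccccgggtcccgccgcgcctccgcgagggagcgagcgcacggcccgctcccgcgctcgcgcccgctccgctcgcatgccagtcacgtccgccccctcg
Dnmt3a: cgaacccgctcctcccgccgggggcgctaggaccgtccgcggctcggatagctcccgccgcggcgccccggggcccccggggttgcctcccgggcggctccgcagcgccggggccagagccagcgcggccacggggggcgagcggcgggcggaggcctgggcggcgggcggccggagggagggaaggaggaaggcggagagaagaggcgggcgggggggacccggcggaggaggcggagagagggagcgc
Dnmt3b: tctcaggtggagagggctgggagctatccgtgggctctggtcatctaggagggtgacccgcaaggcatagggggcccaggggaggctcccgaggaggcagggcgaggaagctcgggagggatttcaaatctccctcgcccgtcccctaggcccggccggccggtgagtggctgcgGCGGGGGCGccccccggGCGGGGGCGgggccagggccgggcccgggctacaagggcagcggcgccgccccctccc
The Tet3 stretch (chr6:83441679-83441928, minus strand) held 1 CCAAT box, a motif present in 33.8% of 32851 promoter stretches of the same length. The Dnmt3b stretch (chr2:153649199-153649448, plus strand) held 2 Egr matches, a motif present in 4.7% of all stretches. The Tet2 stretch (chr3:133544391-133544640, minus strand) and this Dnmt3a stretch (chr12:3806730-3806979, plus strand) held none of the motifs. Dnmt3a has 2 further RefSeq starts. The stretch of one (chr12:3806910-3807159), which overlaps the stretch shown, held 1 Egr match, and that of the other (chr12:3891494-3891743) held 1 E-box, which 6.02% of all stretches hold. Among the other members the Tet1 stretch held 1 Egr match, and 2 of the 3 Dnmt1 stretches and the Mbd3 stretch held CCAAT boxes. None of the 11 stretches matched the full element, its core or the AP-1 site, which 1.55%, 17.8% and 6.75% of all stretches hold. The stretches also differed in CG pairs, the target of these enzymes. There were 51 in the Tet2 stretch, 38 in the Dnmt3a stretch, 21 in the Dnmt3b stretch and 17 in the Tet3 stretch, against a median of 6 over all stretches. Of those not shown, the 3 Dnmt1 stretches held 2, 7 and 26. The other Dnmt3a stretches held 40 and 15, the Tet1 stretch 15 and the Mbd3 stretch 14. These matches describe letters only and say nothing of binding.

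Setting Pilo against Mock asks which of these genes differ in RNA level after acute seizure. In exonic counts Tet3 and Dnmt3a rose, no member fell, and 7 did not pass the test. Dnmt3b was lower at an unadjusted p under 0.05 in exonic as in intronic counts. With DESeq2 no member passed as lower in either, and Tet2 passed as higher in exonic counts (adjusted p = 0.0224). By edgeR's test Dnmt3b passed as lower in the second table's exonic columns (adjusted p = 0.0382) and in exonic plus intronic counts (adjusted p = 0.0188). Tet3 rose by 0.87 on the log2 scale and Dnmt3a by 0.35, while the 9 members had a median log2 fold change of 0.08, against 0.0050 over all 19176 genes tested. Of all genes tested 31.8% passed, 15.6% as higher and 16.2% as lower, so 2 of 9 is no larger a share than that background. Without overlap of the groups were 3 of the 9 members, Tet3 and Dnmt3a higher and Dnmt3b lower, against 32.0% of all genes. With the replicate number as a block, 3 members passed as higher and 2 as lower, and 47.0% of all genes passed, 23.8% as higher and 23.2% as lower.

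Tet3, a methylcytosine dioxygenase (ENSMUSG00000034832, GRCm38 chromosome 6, 83362373 to 83459084, minus strand), had 197, 219, 231 and 202 exonic CPM in the Pilo libraries, against 119, 114, 115 and 117 in the Mock libraries. Every Pilo library lay above every Mock library, and the Mock libraries differed little among themselves. The means were 212 ± 15.5 exonic CPM in Pilo and 116 ± 2.03 in Mock (SD, n = 4 each), a log2 change of 0.87 (SE 0.07). The adjusted p was 5.28e-06 in the quasi-likelihood test of edgeR, corrected over all genes tested by the Benjamini-Hochberg method, as are all adjusted p-values below. By its p-value Tet3 stood 77th of the 19176 genes, and 3.16% of genes had a larger log2 fold change. Tet2, a dioxygenase of the same family that lacks the DNA-binding CXXC domain (ENSMUSG00000040943, chromosome 3, 133463679 to 133545139, minus strand), had 281, 270.4, 227 and 263 exonic CPM in the Pilo libraries, against 225, 217, 206 and 242 in the Mock libraries. The groups overlapped, since the lowest Pilo library, replicate 3, was below the highest Mock library, replicate 4. Its log2 change was 0.23 (SE 0.09, adjusted p = 0.0563), and it passed with the replicate block (adjusted p = 0.00207). Leaving out Mock replicate 4, the highest Mock library, gave an adjusted p of 0.0429 and leaving out Pilo replicate 3 one of 0.00951. The 6 other fits that left out 1 library did not pass, with adjusted p from 0.0728 to 0.121. Tet1 (ENSMUSG00000047146, chromosome 10, 62804570 to 62908996, minus strand), which has a CXXC domain, had 17.0, 16.5, 21.5 and 16.6 exonic CPM in the Pilo libraries, against 21.5, 18.7, 22.0 and 18.1 in the Mock libraries. Pilo replicate 3 lay among the Mock libraries and the other Pilo libraries below them, and the log2 change was -0.17 (SE 0.11, adjusted p = 0.276).

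**Figure D1:**
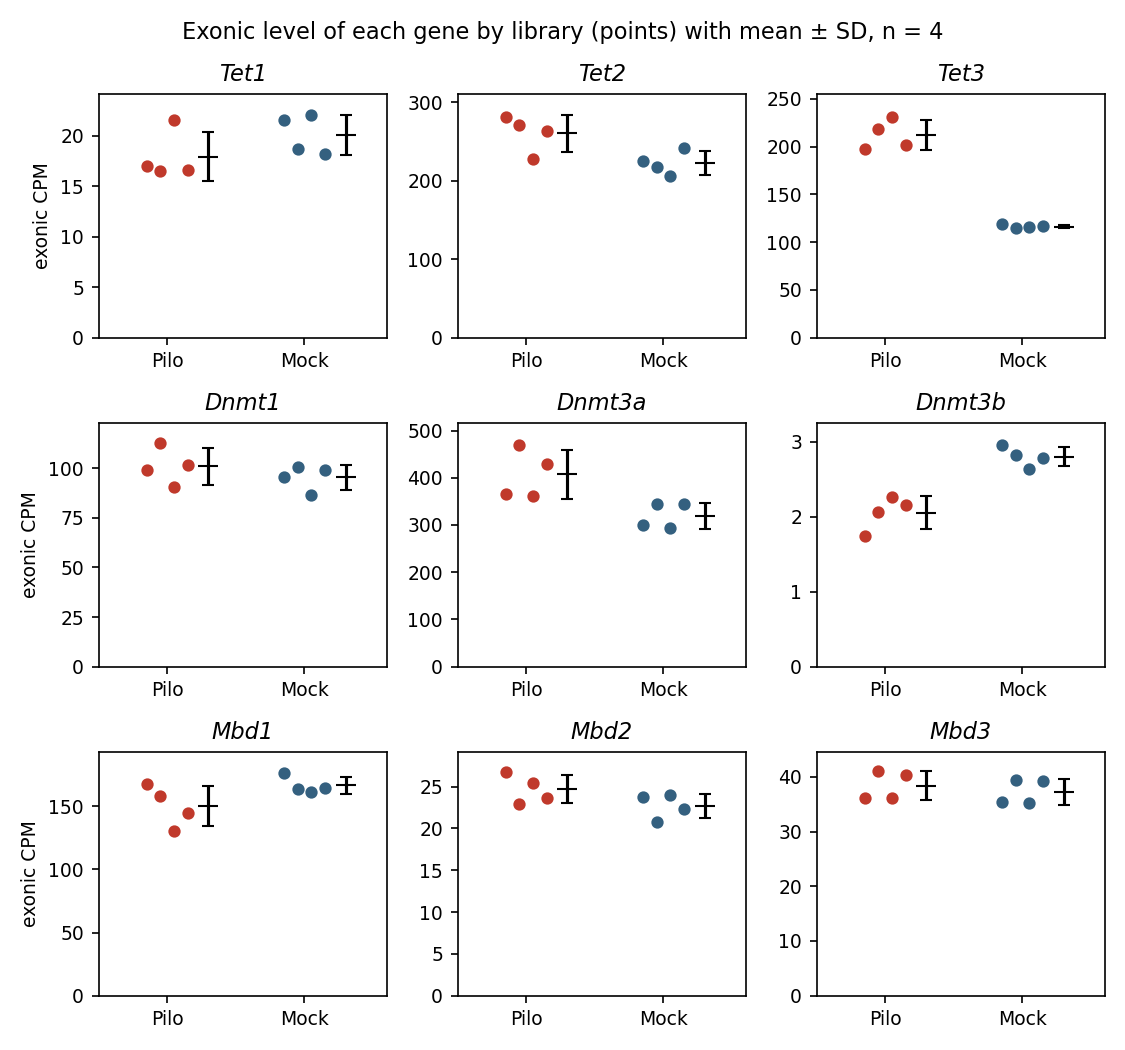
Exonic CPM of the 9 genes in each library, Pilo to the left of Mock, with the mean and SD beside the points and each axis starting at 0. Tet3 lies between 197 and 231 CPM in Pilo and between 114 and 119 CPM in Mock, while Tet1, Tet2, Dnmt1 and the 3 Mbd genes overlap between the groups.

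Within the Tet family the make-up of exonic counts per kilobase of merged exons differed between the groups. Tet3 held 40.0 to 48.2% in the Pilo libraries, against 31.0 to 33.6% in the Mock libraries. Tet2 held 46.9 to 56.3% in the Pilo libraries, against 59.4 to 63.7% in the Mock libraries, and Tet1 3.53 to 4.86% in the Pilo libraries, against 5.22 to 6.93% in the Mock libraries. For each of these shares the groups did not overlap, and Tet2 had the largest share of the 3 in every library except Pilo replicate 3. The 3 shares make up the whole in each library, so they do not vary independently. The Tet2 share was lower in Pilo although its own exonic log2 change was 0.23. These shares restate the counts above on a scale that does not depend on library size, and were not tested apart from them.

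Among the writers, Dnmt3a (ENSMUSG00000020661, chromosome 12, 3806007 to 3914443, plus strand), the de novo methyltransferase known as the main one of postnatal neurons, had 367, 469.8, 362 and 429.9 exonic CPM in the Pilo libraries, against 299, 343, 293 and 344 in the Mock libraries. The lowest Pilo library lay above the highest Mock library by a margin smaller than the spread within either group. The means were 407 ± 52.1 exonic CPM in Pilo and 319.9 ± 27.5 in Mock (SD, n = 4 each), a log2 change of 0.35 (SE 0.10, adjusted p = 0.0172). The call was lost without Pilo replicate 4 (adjusted p = 0.0517). Dnmt1, the maintenance methyltransferase (ENSMUSG00000004099, chromosome 9, 20907209 to 20959888, minus strand), had 99.0, 113, 90.4 and 102 exonic CPM in the Pilo libraries, against 95.4, 100.5, 86.5 and 98.9 in the Mock libraries. The groups overlapped widely and the log2 change was 0.08 (SE 0.08, adjusted p = 0.492). Dnmt3b, the other de novo enzyme (ENSMUSG00000027478, chromosome 2, 153649450 to 153687730, plus strand), was near the lower end of what was measured, at 61 to 71 exonic counts per Pilo library and 83 to 99 per Mock library. It had 1.74, 2.06, 2.26 and 2.15 exonic CPM in the Pilo libraries, against 2.95, 2.82, 2.64 and 2.78 in the Mock libraries, and every Pilo library was below every Mock library. Its log2 change of -0.45 (SE 0.16, adjusted p = 0.0517) missed the threshold, and it passed with the replicate block (adjusted p = 0.0312). Counts of the genes that overlap Dnmt3a and Tet2 on the opposite strand, Dnmt3aos and Gm42567, reached at most 3 and 13 in any library.

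None of the readers passed the test in exonic counts. Mbd1, which binds methylated CG pairs and also has CXXC domains (ENSMUSG00000024561, chromosome 18, 74267605 to 74282732, plus strand), had 167, 159, 131 and 145 exonic CPM in the Pilo libraries, against 177, 164, 161 and 165 in the Mock libraries. Pilo replicate 1 lay within the Mock range and the other Pilo libraries below it, with a log2 change of -0.15 (SE 0.08, adjusted p = 0.206), which passed with the replicate block (adjusted p = 0.0275). Mbd2, the methyl-binding subunit of a form of the NuRD corepressor (ENSMUSG00000024513, chromosome 18, 70568189 to 70626131, plus strand), had 26.7, 23.0, 25.5 and 23.6 exonic CPM in the Pilo libraries, against 23.7, 20.8, 23.9 and 22.3 in the Mock libraries. The groups overlapped, and the log2 change was 0.12 (SE 0.09, adjusted p = 0.306). Mbd3, the subunit that takes the place of Mbd2 in other NuRD complexes and in mammals binds methylated DNA poorly (ENSMUSG00000035478, chromosome 10, 80392539 to 80399550, minus strand), had 36.1, 41.0, 36.2 and 40.3 exonic CPM in the Pilo libraries, against 35.4, 39.4, 35.2 and 39.3 in the Mock libraries. In both groups replicates 2 and 4 were higher than replicates 1 and 3, and the log2 change was 0.04 (SE 0.08, adjusted p = 0.740).

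Levels can be set against each other only per length, here as exonic CPM per kilobase of the merged exons in GENCODE vM21. Mbd1 averaged 22.4 ± 2.40 in Pilo and 24.9 ± 1.03 in Mock (SD, n = 4 each), Dnmt3a 24.5 ± 3.13 in Pilo and 19.2 ± 1.65 in Mock, and Mbd3 19.3 ± 1.32 in Pilo and 18.8 ± 1.19 in Mock. Tet2 averaged 15.4 ± 1.39 in Pilo and 13.2 ± 0.886 in Mock, Dnmt1 13.7 ± 1.24 in Pilo and 12.9 ± 0.849 in Mock, Tet3 12.7 ± 0.930 in Pilo and 6.97 ± 0.122 in Mock and Mbd2 7.69 ± 0.534 in Pilo and 7.06 ± 0.457 in Mock. Tet1 and Dnmt3b stood lowest in both groups, Tet1 at 1.16 ± 0.157 in Pilo and 1.30 ± 0.127 in Mock and Dnmt3b at 0.402 ± 0.0440 in Pilo and 0.548 ± 0.0254 in Mock. In Pilo the range of Mbd1 overlapped those of Dnmt3a and Mbd3, and the ranges of Tet2, Dnmt1 and Tet3 overlapped one another. In Mock, Mbd1 was above all other members in every library, Dnmt3a and Mbd3 overlapped, Tet2 and Dnmt1 overlapped, and Tet3 lay within the range of Mbd2. Tet3 thus stood 6th in Pilo and 7th in Mock. In Pilo it ranged from 11.8 to 13.8 against 7.15 to 8.32 for Mbd2. Merged exons are longer than most single transcripts, so these values understate genes with many rarely used exons.

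Intronic counts come mostly from RNA that is not yet spliced, and in nuclei they are counted beside the spliced RNA of the same libraries. In intronic counts 1 member, Tet3, rose and none fell. Of 13318 genes 41.4% passed, 19.6% as higher and 21.9% as lower. With the replicate block 3 members passed as higher and 1 as lower, against 27.7% and 29.2% of all genes (56.9% in all). The members' median log2 fold change was -0.03, against -0.0038 over all genes tested. Tet3 was also the member whose groups did not overlap, against 37.0% of all genes. Tet3 had 41.7, 42.7, 39.5 and 44.0 intronic CPM in the Pilo libraries, against 29.4, 32.4, 28.3 and 38.9 in the Mock libraries. The lowest Pilo library and Mock replicate 4 lay close together, and the other Mock libraries lower. The log2 change was 0.38 (SE 0.12, adjusted p = 0.0196), and the call was lost when any of Mock replicate 1, Mock replicate 3 and Pilo replicate 4 was left out (adjusted p = 0.0636, 0.0581 and 0.0572). B230319C09Rik, on the opposite strand within Tet3, had 24 to 49 counts per Pilo library and 25 to 39 per Mock library, and the strand setting of the counting is not given in the sources used here. On the same strand as Tet3, outside its exons, 5430434F05Rik had 2 to 15 counts per Pilo library and 7 to 24 per Mock library. Mir6374, placed likewise, had 2 to 4 per Pilo library and 0 to 3 per Mock library. The part of these genes in the Tet3 intronic counts was not tested. Dnmt3a had 137, 172, 183 and 174 intronic CPM in the Pilo libraries, against 166, 172, 154 and 189.7 in the Mock libraries. Both groups covered nearly the same range, with a log2 change of -0.03 (SE 0.11, adjusted p = 0.830). Dnmt1 had 128, 109, 145 and 127 intronic CPM in the Pilo libraries, against 106, 95.6, 111 and 113 in the Mock libraries. Only Pilo replicate 2 lay within the Mock range, and the log2 change was 0.26 (SE 0.10, adjusted p = 0.0559). It passed with the replicate block (adjusted p = 0.00297). It also passed without Pilo replicate 2, the Pilo library nearest to Mock (adjusted p = 0.0222). The 7 other fits that left out 1 library did not pass (adjusted p up to 0.187).

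**Figure D2:**
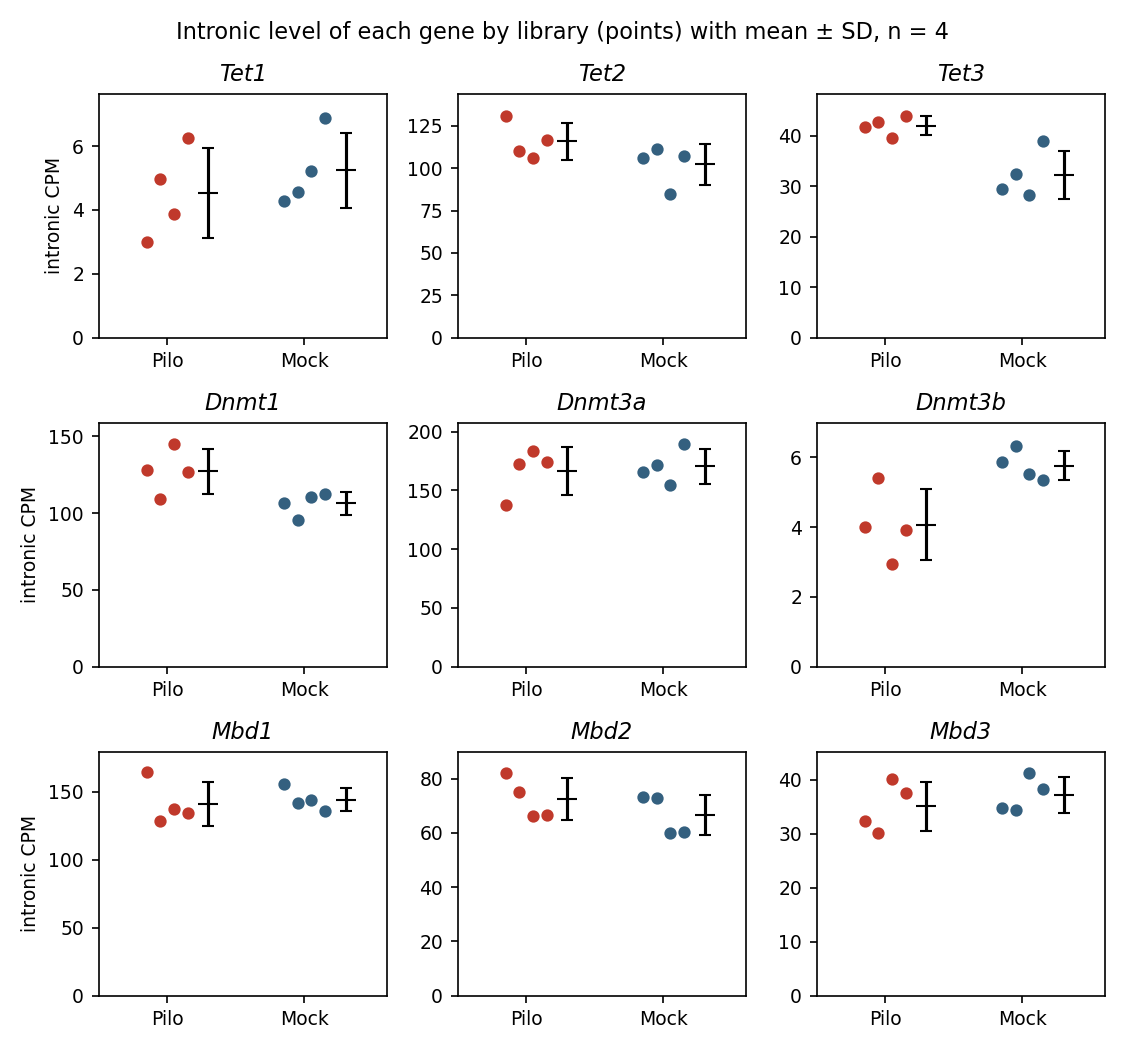
Intronic CPM of the 9 genes in each library, Pilo to the left of Mock, with the mean and SD beside the points and each axis starting at 0. Tet3 is the member whose groups do not overlap, at 39.5 to 44.0 CPM in Pilo and 28.3 to 38.9 CPM in Mock.

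The other members did not pass in intronic counts. Tet2 had 131, 109.9, 106 and 117 intronic CPM in the Pilo libraries, against 106, 111, 84.5 and 107 in the Mock libraries. Its groups overlapped, and the log2 change of 0.18 (SE 0.11, adjusted p = 0.202) passed with the replicate block (adjusted p = 0.0367). Dnmt3b, with 37 to 63 intronic counts per Pilo library and 76 to 108 per Mock library, had 4.01, 5.39, 2.93 and 3.92 intronic CPM in the Pilo libraries, against 5.86, 6.31, 5.52 and 5.35 in the Mock libraries. Pilo replicate 2 just overlapped the Mock range. The log2 change of -0.51 (SE 0.21, adjusted p = 0.0598) passed with the replicate block (adjusted p = 0.020) and without Pilo replicate 2 (adjusted p = 0.0192). The 7 other fits of Dnmt3b that left out 1 library did not pass (adjusted p up to 0.178). Tet1 rested on 42 to 75 intronic counts per Pilo library and 60 to 99 per Mock library, at 3.01, 4.97, 3.88 and 6.25 intronic CPM in the Pilo libraries, against 4.28, 4.55, 5.23 and 6.88 in the Mock libraries. Pilo replicates 1 and 3 lay below every Mock library and the other Pilo libraries within the Mock range, and the log2 change was -0.22 (SE 0.24, adjusted p = 0.506). Mbd1 ranged over 128 to 164 intronic CPM in Pilo and 136 to 155 in Mock, Mbd2 over 66.3 to 82.2 intronic CPM in Pilo and 59.8 to 73.2 in Mock and Mbd3 over 30.1 to 40.1 intronic CPM in Pilo and 34.3 to 41.3 in Mock. These 3 readers had intronic log2 fold changes of -0.03 (SE 0.10, adjusted p = 0.819), 0.12 (SE 0.11, adjusted p = 0.401) and -0.08 (SE 0.12, adjusted p = 0.610), and their groups overlapped.

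Whether exonic and intronic counts of a gene changed alike was tested as the interaction of region with treatment, relative to the scaling of each region. Its exonic counts were those of the second table, in which the exonic log2 change was 0.84 for Tet3 and 0.32 for Dnmt3a. Tet3 and Dnmt3a changed more in exons than in introns, and Dnmt1 less, so 3 of 9 members passed, against 26.2% of 13047 genes (13.5% with the higher log2 change in exons and 12.8% with the lower). In this test the replicate block took the place of the term for each sample, so that fit differs in more than the block. With the replicate block 2 members passed, both with the higher exonic change, against 10.2% of all genes, and 9.63% passed the other way. The difference between exonic and intronic log2 fold changes was 0.46 (SE 0.10, adjusted p = 0.00539) for Tet3 and 0.36 (SE 0.09, adjusted p = 0.0122) for Dnmt3a. For Dnmt1 it was -0.20 (SE 0.06, adjusted p = 0.0224), a call lost with the replicate block (adjusted p = 0.0734, with 19.9% of genes passing). It also ended on leaving out any of Mock replicate 1, Pilo replicate 1, Pilo replicate 3 and Pilo replicate 4 (adjusted p = 0.0569, 0.0512, 0.0632 and 0.0505). The remaining 6 members did not pass, with differences from -0.14 for Mbd1 to 0.10 for Mbd3.

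**Figure D3:**
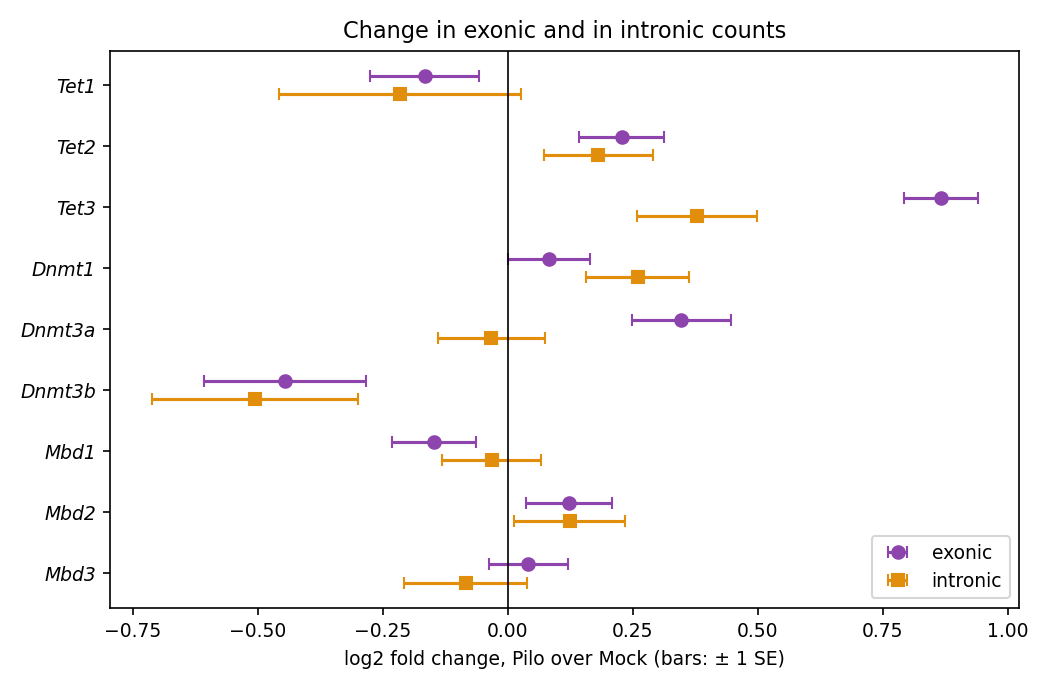
Log2 fold change of Pilo over Mock in exonic counts (circles) and intronic counts (squares) for the 9 genes, with bars of 1 SE. Exonic values are from the exonic table, which the interaction test did not use. The pairs stand apart for Tet3 (0.87 and 0.38) and Dnmt3a (0.35 and -0.03), and lie close together for Tet1, Tet2, Dnmt3b and Mbd2.

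The intronic share of a gene's counts in each library shows the same values without scaling. For Tet3 it was 7.79, 6.45, 6.94 and 7.98% in the Pilo libraries, against 10.3, 11.4, 9.85 and 13.9% in the Mock libraries. For Dnmt3a it was 13.0, 15.1, 13.9 and 13.9% in the Pilo libraries, against 20.5, 21.1, 16.6 and 21.0% in the Mock libraries. The groups did not overlap for these genes, nor for Mbd2 (52.3 to 55.1% in Pilo and 56.0 to 58.9% in Mock) and Mbd3 (23.7 to 28.7% in Pilo and 30.8 to 31.9% in Mock). Each of these 4 had an exact permutation p of 0.0286, two-sided, the smallest that 4 against 4 libraries can give, and 0.0643 after adjustment over the 9 members, so none passed. A member at that smallest p could not pass by its own values alone, so no conclusion is drawn from this outcome. Over 13046 genes the groups did not overlap in 41.7%, and 39.0% were apart with Pilo lower, as these 4 of 9 members were. Between same-numbered libraries the share was lower in Pilo in every pair for 8 members and in 3 of 4 pairs for Dnmt1, against 55.1% of genes lower in every pair. An exact paired test of 4 pairs cannot go below 0.125. All 9 mean shares were lower in Pilo, as were those of 81.8% of genes, and so was the share over all genes, at 29.2 to 30.6% in Pilo and 31.9 to 33.7% in Mock. The interaction test above sets that common shift aside through its scaling, and under it Mbd2 and Mbd3 did not pass.

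**Figure D4:**
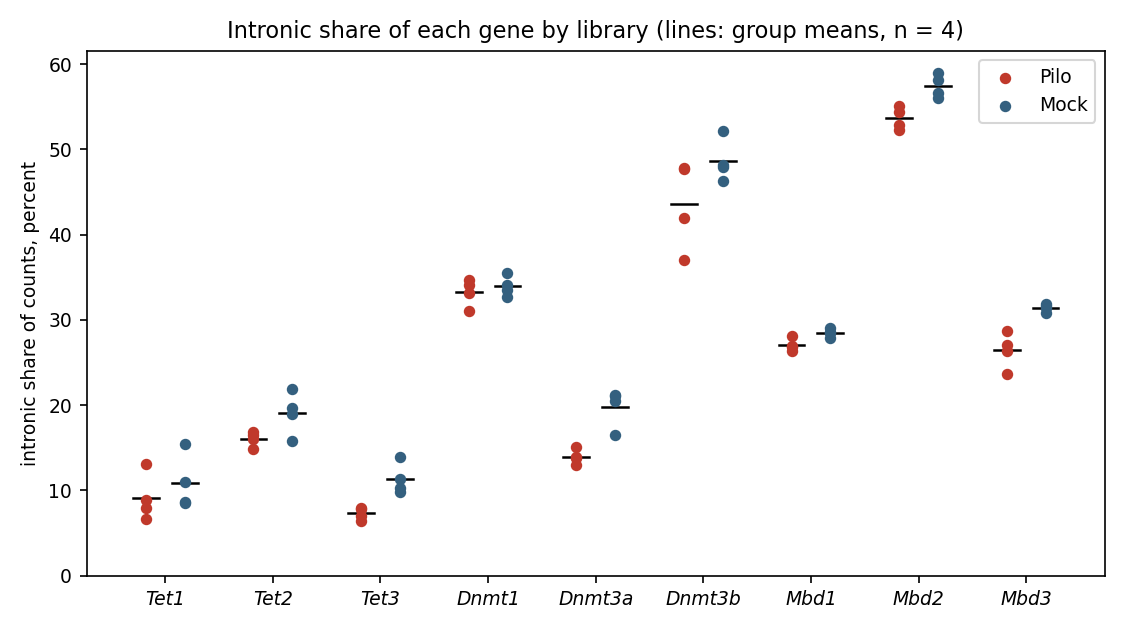
Intronic counts as a percentage of exonic plus intronic counts for each gene and library, Pilo to the left of Mock, with lines at the group means. Mbd2 has the largest share, 53.7% in Pilo and 57.4% in Mock, and Tet3 has 7.29% in Pilo and 11.4% in Mock.

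Genes whose exonic pattern was most like that of the 2 members that rose were sought by Pearson correlation of log2 CPM over the 8 libraries, among 12850 genes. For Tet3 they were Spred2 (r = 0.997) and Scaf8 (r = 0.997), with exonic log2 fold changes of 0.96 and 0.85. For Dnmt3a they were Zfp740 (r = 0.993) and Ripor1 (r = 0.991), with log2 fold changes of 0.43 and 0.48. The points share their libraries and the difference between the groups, so these values are a description.

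Other genes of the pathway, in 6 lists, passed the exonic test in both directions, and their counts are read against the 15.6% higher and 16.2% lower of all genes and the all-gene median of 0.0050 given above. Calls with the replicate block are read against its 23.8% higher and 23.2% lower. Of 17 base excision and active demethylation genes tested in exonic counts, 5 were higher and 3 lower. Their median log2 fold change was -0.18, and only some of them act downstream of the Tet enzymes. The risers were the stress-inducible Gadd45g, Gadd45b and Gadd45a, the thymine DNA glycosylase gene Tdg, which removes oxidised methylcytosine, and Parp1, which senses DNA breaks. Gadd45b averaged 44.3 ± 5.61 CPM in Pilo and 11.9 ± 2.82 CPM in Mock (SD, n = 4 each), a log2 change of 1.90 (SE 0.16, adjusted p = 6.94e-06), Gadd45a changed by 1.38 (SE 0.20, adjusted p = 0.000231) and Gadd45g by 2.88 (SE 0.15, adjusted p = 2.82e-07). Tdg averaged 98.8 ± 12.7 CPM in Pilo and 65.0 ± 5.07 CPM in Mock, a log2 change of 0.60 (SE 0.10, adjusted p = 0.000435). Those that fell were the DNA polymerase gene Polb, the ligase gene Lig3 and the oxidised guanine glycosylase gene Ogg1, by 0.36, 0.32 and 0.53. Parp1 changed by 0.43 (SE 0.09, adjusted p = 0.00260). Tdg, Parp1, Polb, Lig3 and Ogg1 were named after their values were seen. The block gave 6 as lower.

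By edgeR's test, of 11 other methyl-CpG binding and MBD-domain genes 0 passed as higher and 4 as lower, with a median of -0.09. Mbd4, a glycosylase that acts on mismatches at methylated sites, averaged 21.4 ± 1.25 CPM in Pilo and 35.7 ± 2.99 CPM in Mock, a log2 change of -0.74 (SE 0.09, adjusted p = 4.12e-05), and the groups did not overlap. Setdb2 and Setdb1, histone methyltransferases with a domain of the MBD type, fell by 0.74 (SE 0.15, adjusted p = 0.00217) and 0.32 (SE 0.07, adjusted p = 0.00451), and the zinc finger reader Zbtb4, named after its values were seen, fell by 0.28. At an unadjusted p under 0.05 there was 1 higher. The block gave 3 as higher, and without Pilo replicate 1 or Pilo replicate 3 there was 1.

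Of 13 maintenance and de novo methylation partners, 4 rose and 1 fell, with a median of 0.16. Suv39h2, a histone methyltransferase of heterochromatin, averaged 3.14 ± 0.392 CPM in Pilo and 5.69 ± 0.783 CPM in Mock, a log2 change of -0.86 (SE 0.16, adjusted p = 0.00104). Ehmt1, also a histone methyltransferase, changed by 0.35 (SE 0.08, adjusted p = 0.00595) and Zfp57, which binds methylated imprinting control regions, by 0.24 (SE 0.07, adjusted p = 0.0165). The other rises were of Trim28, the corepressor that Zfp57 recruits (0.40), and of the histone methyltransferase gene Suv39h1 (0.30), both named after their values were seen. The block gave 2 as lower. The NuRD complex, which Mbd2 and Mbd3 join, had 1 gene higher and 1 lower of 14, with a median of 0.09. Its histone-binding subunit gene Rbbp7 changed by 0.43 (SE 0.07, adjusted p = 0.000713) and the deacetylase gene Hdac1 by -0.30 (SE 0.08, adjusted p = 0.0114). Its rises numbered 4 with the replicate block, and 2 when Mock replicate 4, Pilo replicate 1 or Pilo replicate 3 was left out.

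Of 15 Tet partners and CXXC genes, 3 rose and 2 fell, with a median of 0.01. Cxxc4, which binds Tet2 and lowers its protein, changed by -0.41 (SE 0.09, adjusted p = 0.00310), the Ogt cofactor gene Hcfc1 by 0.36 (SE 0.09, adjusted p = 0.0106) and the histone methyltransferase gene Kmt2a by 0.29 (SE 0.08, adjusted p = 0.0124). Named after their values were seen, the other calls were of the isocitrate dehydrogenase genes Idh3a (0.25) and Idh1 (-0.49), whose products feed the pool of the oxoglutarate that Tet enzymes use. The block gave 5 rises and 4 falls of 15, against 23.8% and 23.2% of all genes, and without Mock replicate 1, Pilo replicate 2 or Pilo replicate 4 there was 1 fall. Of 13 genes of the S-adenosylmethionine cycle, which supplies the methyl donor, 1 rose and 4 fell, with a median of -0.11. Methionine synthase gene Mtr changed by -0.42 (SE 0.08, adjusted p = 0.00191), its reductase gene Mtrr by -0.61 (SE 0.15, adjusted p = 0.00613) and Ahcyl2 by -0.27 (SE 0.07, adjusted p = 0.00649). Mat2b fell by 0.37 and the glycine methyltransferase gene Gnmt rose by 0.59, both named after their values were seen. Gnmt lost its call on leaving out any of Mock replicates 1, 3 and 4 and Pilo replicates 1 and 2, and 2 genes passed as higher with the block, or with Pilo replicate 3 left out.

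**Figure D5:**
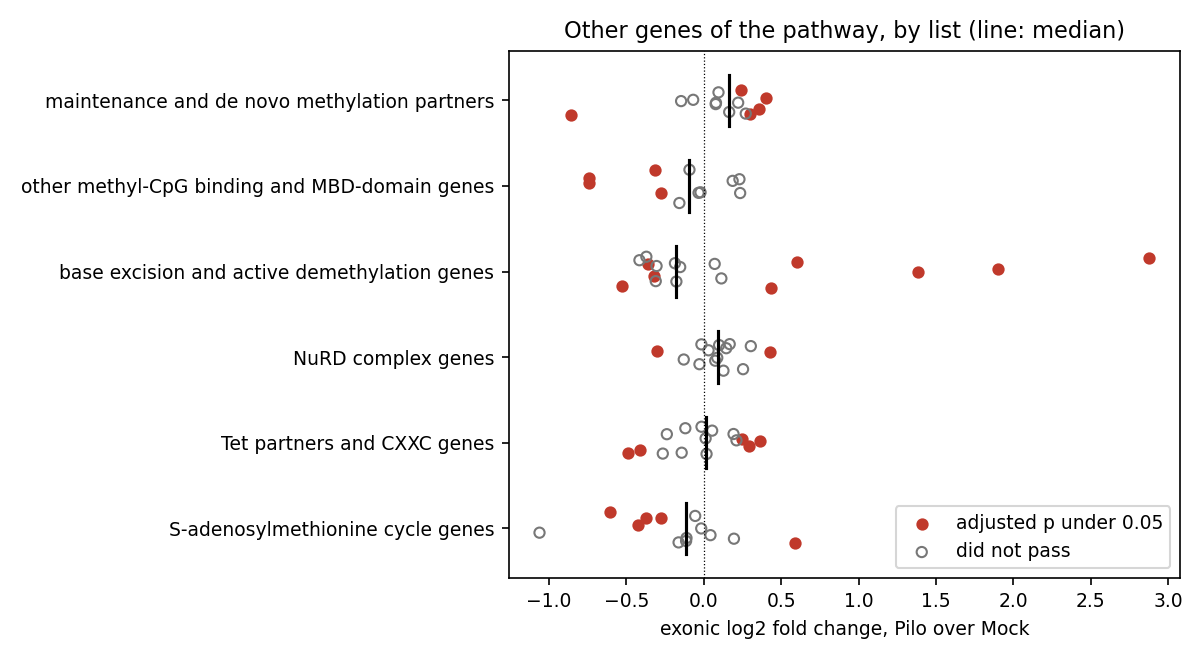
Exonic log2 fold change, Pilo over Mock, of each tested gene in the 6 lists, filled where the adjusted p was under 0.05 and open where not, with a line at the list's median. The 3 Gadd45 genes lie farthest to the right, at 1.38 to 2.88, and list medians lie between -0.18 and 0.16.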

How the data were processed

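Nuclear polyadenylated RNA of 8 samples was sequenced from directional libraries. The authors deposited raw counts per gene: exonic counts for Ensembl genes, and a second table with exonic and intronic counts for Entrez genes. Per the submitters' processing notes the genome is mm10 and the tools include HTSeq 0.11.2, STAR 2.7.1a, Trimmomatic 0.39, edgeR and R 4.1.1. The sources used here do not give the annotation, the strand setting or how introns were counted, and counting without strand could add antisense transcripts to a gene.

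Groups came from the labels. Column numbers 2 and 3 are exchanged between the tables in both groups, since identical counts were found in 38.6 to 45.5% of 14066 genes for the matched column and in 0.682 to 0.782% for the same number. Libraries of a group all differed by more than sampling noise, with a chi-square of 9.21 to 34.2 times its degrees of freedom.

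Genes passed filterByExpr with a minimum count of 10. Pilo and Mock were compared in all 8 libraries with edgeR 4.0.16 (robust quasi-likelihood test, TMM scaling, Benjamini-Hochberg adjustment over all genes, threshold 0.05) in R 4.3.3. The region by treatment interaction was fitted to the exonic and intronic columns of the second table, with the sample as a covariate. In its blocked fit, terms for replicate, treatment and replicate by region took the place of the sample covariate. Intronic shares were compared with an exact permutation test over libraries in Python 3.11.15. The alternatives were DESeq2 1.42.0, RLE factors, no filter, the second table's exonic columns, exonic plus intronic counts, the replicate block and leaving out each library. Simulated counts had 200 changed genes and a dispersion of 0.02. For exonic counts (18961 genes), changes of 1.5-fold and 2-fold were recovered in 42% and 90%. Recovery was 59% and 93% for intronic counts (13220 genes) and 18% and 85% for the interaction (12941 genes). Unchanged genes called numbered 6, 6 and 3, in the same order. In the measured exonic counts 31.8% of genes passed, a far larger part, so these rates do not give the power of the tests on these data.

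Replicate numbers pair the samples by the data: deviations from group means of same-numbered libraries correlated at 0.453 to 0.525 across genes in exonic counts and 0.343 to 0.529 in intronic counts, each above 0.1, though the labels give no shared batch. The fits without the block are the ones reported, with blocked values where they change a call.

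The members, the lists and the marker genes were chosen with earlier results of these data known. Genes were named beside the members by a rule: of each list, up to 3 with the smallest exonic p among those past the test, and, for each member past the exonic test, the 2 with the highest correlation among genes with a mean count of at least 50, other than Gm or Rik symbols. Other list genes in the text are marked there as named after their values were seen. Promoters are from RefSeq on GRCm38.p6, and gene spans and exon lengths from GENCODE vM21. Results of a withheld item are not reported here.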

Additional observations from a re-analysis of the deposited data

Results flagged for a closer look

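Of 54 sets of 4 libraries tested, 2 held a library far from the other 3 by Dixon's test, where chance gives about 1 in 20. The exonic level of Tet1 in Pilo replicate 3 was 21.5 CPM, against 16.5 to 17.0 CPM in the other Pilo libraries. The intronic share of Dnmt3a in Mock replicate 3 of the second table was 16.6%, against 20.5 to 21.1% in the other Mock libraries, and it still lay above every Pilo library.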

How the results depend on the processing

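Of 333 recomputed log2 fold changes of the 9 members, 292 kept their direction and side of the threshold, 9 were no longer past it, 17 came to pass it and 15 changed sign; all 15 were from leaving out 1 library, in values that had not passed. No filter on low counts changed none of 27. With the replicate block 4572 genes were called higher in exonic counts. Tet2 (0.23), Dnmt3b (-0.45) and Mbd1 (-0.15) passed with it in exonic counts, and Tet2 (0.18), Dnmt1 (0.26) and Dnmt3b (-0.52) in intronic counts. The Dnmt1 difference between regions (-0.20) no longer passed, in a fit where the block took the place of the sample covariate. The block changed no other call of a member. Lists with the block, under which 23.8% of all genes passed as higher and 23.2% as lower, had 2 methylation partners lower, 3 other methyl-CpG binding genes higher, 6 base excision genes lower, 4 NuRD genes higher (2 with RLE factors), 5 Tet partners higher and 4 lower, and 2 S-adenosylmethionine cycle genes higher. Tet2 passed in exonic counts with DESeq2 (0.24, adjusted p = 0.0224), RLE factors (0.24, 0.0444) and exonic plus intronic counts (0.28, 0.0183). Dnmt3b passed in the second table's exonic columns (-0.48, 0.0382) and in exonic plus intronic counts (-0.51, 0.0188), and Dnmt1 in intronic counts with DESeq2 (0.28, 0.0326) and RLE factors (0.28, 0.0459). The cause of these changes was not tested.

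Leaving out 1 library gave exonic values of 0.19 to 0.30 for Tet2 and 0.27 to 0.41 for Dnmt3a. Exonic values that did not pass were -0.25 to -0.10 for Tet1, 0.027 to 0.15 for Dnmt1, -0.20 to -0.073 for Mbd1 and 0.0099 to 0.083 for Mbd3. Intronic values were 0.32 to 0.48 for Tet3, 0.19 to 0.33 for Dnmt1, -0.67 to -0.38 for Dnmt3b, -0.082 to 0.050 for Dnmt3a and -0.11 to 0.014 for Mbd1, and, not past the test, -0.41 to -0.057 for Tet1, 0.099 to 0.22 for Tet2, 0.058 to 0.17 for Mbd2 and -0.16 to -0.016 for Mbd3. Differences between regions were -0.25 to -0.19 for Dnmt1, -0.17 to 0.25 for Tet1, -0.045 to 0.13 for Tet2, -0.10 to 0.12 for Dnmt3b and -0.053 to 0.012 for Mbd2. Without 1 library the Dnmt1 intronic share differed by -1.21 to 0.0058 percentage points, and list counts were 0 to 1 for other methyl-CpG binding genes higher, 1 to 2 for NuRD genes higher, 1 to 3 for Tet partners lower and 0 to 2 for S-adenosylmethionine cycle genes higher. Depth limits Dnmt3b and intronic Tet1 most, with counts below 110 in every library.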

Other observations

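Base excision and active demethylation genes that differed between regions did so in one direction. Of 16 tested, 8 passed, and all 8 had a lower log2 change in exonic than in intronic counts, which held for 12.8% of all genes by edgeR's quasi-likelihood test. The list was chosen with earlier results of these data known, and the 8 calls are from the fit without the replicate block. Among the 8 was Apobec3, named after its values were seen and near the floor. It averaged 0.699 exonic CPM in Pilo and 0.860 in Mock. The 3 stress-inducible Gadd45 genes were also among the 8. Their exonic changes are those of the exonic table, while the differences were fitted within the second table. Gadd45g changed by 3.52 in intronic and by 2.88 in exonic counts (difference -0.65, adjusted p = 0.00596), Gadd45b by 2.35 and 1.90 (difference -0.48, adjusted p = 0.00406) and Gadd45a by 1.81 and 1.38 (difference -0.47, adjusted p = 0.0404). Of 14 NuRD genes 3 passed, also with the lower value in exonic counts.

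Idh1, a cytosolic isocitrate dehydrogenase gene named after its values were seen, had the largest positive difference among the Tet partners. Its log2 change was -1.63 in intronic counts and -0.49 in the exonic table. The difference in the interaction test, fitted within the second table, was 1.11 (adjusted p = 6.0e-05).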
